A study of Mus musculus with 14 samples.

Results

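The transcripts described here are those of 10 receptors of the tumour necrosis factor (TNF) receptor superfamily in regulatory T cells. They were taken by gene symbol (Tnfrsf1a, Tnfrsf1b, Tnfrsf4, Tnfrsf9, Tnfrsf14, Tnfrsf18, Tnfrsf25, Tnfrsf26, Cd27 and Fas) and are 10 of 14449 genes in the table. The cells were CD4+ and positive for a Foxp3 eGFP reporter and were sorted at day 35 after birth from the lymph nodes of BALB/c mice. There were 7 libraries of Il1rn-/- mice, which lack the IL-1 receptor antagonist, and 7 libraries of wild-type (WT) mice. The letter in each title divides them into a set a (3 Il1rn-/- and 3 WT) and a set b (4 Il1rn-/- and 4 WT), with no meaning of the letters stated in the labels. Both genotypes carried the reporter used for the sort. The labels do not say that libraries came from separate animals, so each p-value measures only the spread between libraries. The genotype labels were not checked against the targeted gene, since the table analysed here holds no row for Il1rn.

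TNF receptors are membrane proteins that are brought together by trimeric ligands of the TNF family. Receptors without a death domain recruit TRAF adaptors and activate NF-kB, and several of them (GITR, OX40, CD27 and TNFR2) are known for costimulating regulatory T cells and supporting their survival. Receptors with a death domain (TNFR1, DR3 and Fas) recruit TRADD or FADD and can signal either to NF-kB or to cell death.

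Short stretches before the RefSeq starts are shown because several of the receptor genes hold the same letter pattern there. RefSeq promoters of GRCm38.p6 were found for 9 of the 10 members, with 11 start sites in all. The 250 bases before each start were searched on both strands for the STAT letters TTCNNNGAA, 2 NF-kB patterns of 10 letters, the AP-1 letters TGANTCA and the forkhead letters TGTTTAC. The STAT letters were present in 6 of the 11 windows, belonging to 6 members, and in 4 of the 9 windows first listed for a gene, while 7.18% of 27025 mouse promoters held them. These sites are given 5′ to 3′ with the STAT letters in capitals.
Tnfrsf18, chr4:156026213-156026241, plus strand: tgctctacacTTCACAGAAggcctttaca
Tnfrsf1b, chr4:145247033-145247061, minus strand: agcgcattcaTTCCCGGAAgagatgctgg
Tnfrsf1a, chr6:125349473-125349497, plus strand: gcttccTTCCGTGAAattgacaaca
Fas, chr19:34290556-34290584, plus strand: tcaaagcgatTTCTGGGAAgacctgaata
Tnfrsf9, chr4:150927853-150927881, plus strand: caacagctgaTTCCAAGAAacccttcaga
Tnfrsf25, chr4:152116317-152116342, plus strand: gggcctccacTTCTCAGAAggcatgg
The sites of Tnfrsf18 and Tnfrsf1a, 2 of the 6, lie inside exons of the same genes in the GENCODE annotation, whose starts lie further upstream. The sites of Tnfrsf9 and Tnfrsf25 lie before the second listed start of each gene. Both are downstream of the GENCODE start, inside the gene but outside exons. Only the sites of Tnfrsf1b and Fas lie upstream of the annotated gene. The AP-1 letters were in 2 of the 11 windows (Tnfrsf9 and Fas) and in 6.87% of all promoters. The first NF-kB pattern was in 0 windows and in 0.337% of promoters, and the second was in 1 window, that of the second Tnfrsf9 start, and in 0.285% of promoters. The forkhead letters were in 0 windows and in 3.09% of promoters. No matches overlapped each other. A match describes letters only and was not tested as a binding site.

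Longer stretches follow for Tnfrsf18 and Cd27, whose levels went together across the deep libraries described further on, and for Tnfrsf1b, which held STAT letters (in capitals). Bases inside GENCODE exons are left out of the Tnfrsf18 stretch, and the Cd27 stretch holds only the 141 bases nearest the RefSeq start.
Tnfrsf18, chr4:156026072-156026163, plus strand: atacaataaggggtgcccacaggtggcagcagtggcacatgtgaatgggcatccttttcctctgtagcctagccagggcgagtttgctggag
Cd27, chr6:125237137-125237277, minus strand: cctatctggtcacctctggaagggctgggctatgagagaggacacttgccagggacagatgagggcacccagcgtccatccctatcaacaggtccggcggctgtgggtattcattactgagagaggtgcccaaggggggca
Tnfrsf1b, chr4:145246871-145247120, minus strand: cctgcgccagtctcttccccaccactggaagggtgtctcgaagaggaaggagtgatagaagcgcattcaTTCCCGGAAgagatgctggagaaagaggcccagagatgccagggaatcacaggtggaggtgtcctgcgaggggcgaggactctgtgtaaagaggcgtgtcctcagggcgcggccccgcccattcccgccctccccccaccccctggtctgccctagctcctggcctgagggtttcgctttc
By the GENCODE annotation of GRCm38, 6 members lie on chromosome 4 and 2 on chromosome 6. Tnfrsf4 and Tnfrsf18 are neighbours on the plus strand of chromosome 4, with 9551 bases between the end of the one and the start of the other. The build the authors used is not given in the sources used here.

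Depth and composition differed between libraries, which held 952021 to 3756559 reads in all genes together. The ribosomal RNA precursor Rn45s split the libraries into a deep group of 8 (5 Il1rn-/-, 3 WT), at 20.3% to 39.95% of reads, and a shallow group of 6 (2 Il1rn-/-, 4 WT), at 59.6% to 65.8%. All of set a was deep, and in set b only Il1rn-/- 3-b and 4-b were, so genotype and library group are partly confounded. Y-linked transcripts were found in 4 libraries (Il1rn-/- 3-b and 4-b, WT 1-a and 2-a). CPM values here are read counts scaled for library size and for a further factor of each library, which the authors deposited as log2 values. The summed level of 10 regulatory T cell markers, Foxp3 among them, was 3568 to 5620 CPM in Il1rn-/- and 3425 to 4405 CPM in WT libraries. Markers of B cells (8 genes) summed to 17.8 to 64.3 CPM in Il1rn-/- and 23.7 to 72.2 CPM in WT, and 5 monocyte and macrophage markers summed to 2.15 to 25.9 CPM in Il1rn-/- and 8.13 to 16.6 CPM in WT. The single neutrophil marker measured was at 0 to 0.613 CPM in Il1rn-/- and at 0 to 2.19 CPM in WT. Markers of CD8 T and NK cells (6 genes) summed to 34.0 to 61.6 CPM in Il1rn-/- and 27.1 to 77.5 CPM in WT. Those of dendritic cells (4 genes, mostly H2-Ab1) summed to 16.2 to 69.3 CPM in Il1rn-/- and 20.7 to 126 CPM in WT. Markers of plasma cells (5 genes) summed to 95.3 to 258 CPM in Il1rn-/- and 134 to 255 CPM in WT. Most of this sum was Xbp1, Irf4 and Prdm1, while Jchain was at 0 reads in 8 libraries and Sdc1 in 9. Irf4 and Prdm1 are also on the list of effector regulatory T cell genes used below. Red cell markers (3 genes) summed to 0.517 to 9.76 CPM in Il1rn-/- and 0 to 2.46 CPM in WT. The part of these cells in the receptor values was not tested.

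All 10 receptors were measured in every library, with at least 17 reads each. Levels were compared between genes as CPM per kb of annotated exon. Tnfrsf18 (GITR), Tnfrsf4 (OX40) and Cd27 stood highest, at means over 14 libraries of 205, 183 and 139 CPM per kb. Tnfrsf1b (TNFR2) followed at 63.3, Tnfrsf9 (4-1BB) at 46.1, Tnfrsf14 (HVEM) at 39.96, Tnfrsf25 (DR3) at 34.1, Fas at 20.3, Tnfrsf26 at 13.4 and Tnfrsf1a (TNFR1) at 6.83 CPM per kb. Tnfrsf18 lay at the 99.4th percentile of genes with a length and Tnfrsf1a at the 71.4th. Among neighbours in this order, only Cd27 and Tnfrsf1b had ranges over libraries that did not overlap, and Cd27 was higher in 14 of 14 libraries by a mean of 1.14 ± 0.40 on the log2 scale (SD). Tnfrsf18 exceeded Tnfrsf4 in 8 of 8 deep but in 3 of 6 shallow libraries, and Tnfrsf25 exceeded Fas in 8 of 8 and 3 of 6. Tnfrsf9 exceeded Tnfrsf14 in 8 of 14 libraries (6 of 8 deep and 2 of 6 shallow), and their ranges overlapped. Tnfrsf14 lay below Tnfrsf25 in 8 of 8 deep libraries, by a mean of -0.51 on the log2 scale per kb, and above it in 6 of 6 shallow libraries, by a mean of 1.56, so the place of these neighbours depended on the library group.

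**Figure D1:**
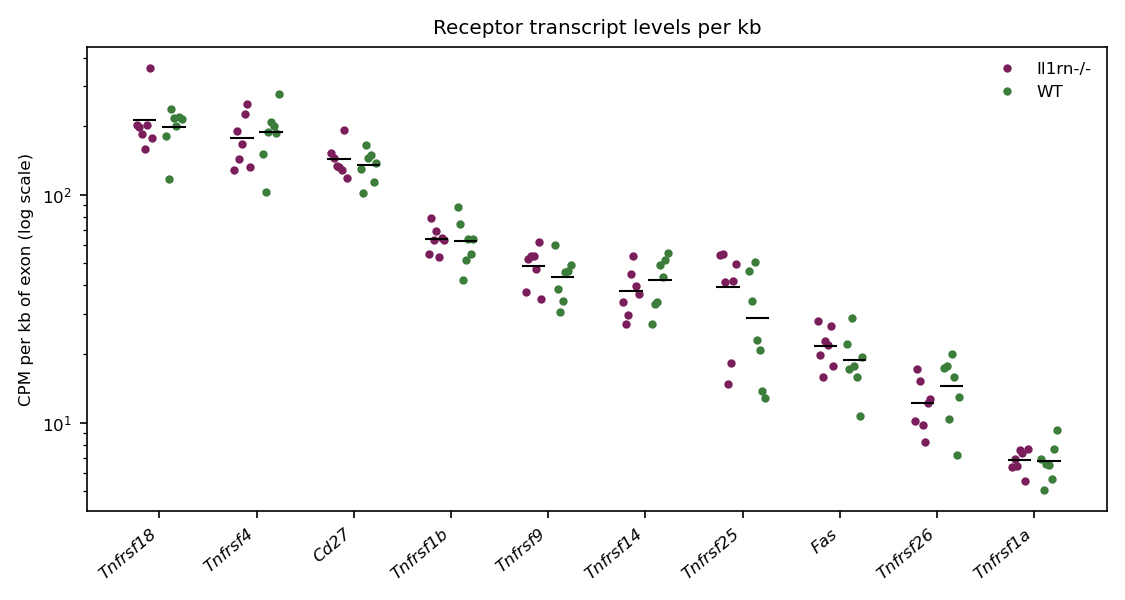
CPM per kb of annotated exon (log axis) of the 10 receptors in each of 7 Il1rn-/- (left) and 7 WT libraries (right), with bars at the group means. Tnfrsf18, Tnfrsf4 and Cd27 lie highest and Tnfrsf1a lowest, and the genotypes overlap for every receptor.

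The genotype comparison asked whether the receptors differ in regulatory T cells that develop without the IL-1 receptor antagonist. By limma over 12329 genes, 0 of the 10 receptors were called at an adjusted p under 0.05, the same 0% as over all genes. At an unadjusted p under 0.05 there were 0 receptors, beside 5.51% of all genes. With the library group in place of the set letter these were again 0 receptors at either threshold, beside 0% and 2.46% of all genes. Values below are log2 CPM, differences are Il1rn-/- minus WT ± SE with the set letter in the model, and n is 7 libraries in each genotype. In bulk samples, fewer cells of a type and less RNA per cell cannot be told apart.

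The 4 costimulatory receptors differed between genotypes by less than the spread within each genotype. Tnfrsf18, whose product GITR costimulates T cells, had a lowest, median and highest value of 7.92, 8.25 and 9.10 in Il1rn-/- libraries, against 7.49, 8.36 and 8.51 in WT libraries. Its mean was 8.29 ± 0.38 in Il1rn-/- and 8.21 ± 0.34 in WT (SD), a difference of 0.082 ± 0.18 with a 95% interval of -0.30 to 0.47. One Il1rn-/- library, 3-b, lay above all others and one WT library, 2-a, below all others, and the rest lay together. The difference was -0.045 without Il1rn-/- 3-b and -0.030 without WT 2-a, so its sign rests on these libraries. Reads of Tnfrsf18 may include those of its antisense neighbour Gm16008, because no source used here gives the handling of strand. In the antisense direction 21.7% of its transcript sequence is shared with other genes, most often with Gm16008. Tnfrsf4, which encodes the OX40 costimulatory receptor, had values of 7.45, 7.84 and 8.42 in Il1rn-/- libraries, against 7.13, 8.01 and 8.56 in WT libraries. Its means were 7.87 ± 0.38 in Il1rn-/- and 7.95 ± 0.44 in WT (SD), and the difference was -0.078 ± 0.18. It was positive, at 0.048, with the library group in place of the letter.

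Cd27, which encodes the receptor for CD70, had values of 8.11, 8.28 and 8.80 in Il1rn-/- libraries, against 7.89, 8.32 and 8.59 in WT libraries. Its means were 8.36 ± 0.23 in Il1rn-/- and 8.28 ± 0.24 in WT (SD), a difference of 0.086 ± 0.15. The spread within each genotype was larger than the difference between them. Tnfrsf9, which encodes the 4-1BB receptor found on activated T cells, had values of 6.57, 7.15 and 7.40 in Il1rn-/- libraries, against 6.38, 6.97 and 7.35 in WT libraries. The difference was 0.17 ± 0.17, with an interval of -0.19 to 0.53, and 5 of 7 Il1rn-/- libraries lay above the WT mean. With the library group in place of the letter it was 0.19 ± 0.17.

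The receptors for TNF itself differ in signalling, since TNFR1 carries a death domain and TNFR2 does not. Tnfrsf1b had values of 7.68, 7.92 and 8.23 in Il1rn-/- libraries, against 7.34, 7.93 and 8.40 in WT libraries. The genotypes differed by 0.051 ± 0.16, with an interval of -0.28 to 0.39. Tnfrsf1a had values of 3.86, 4.17 and 4.32 in Il1rn-/- libraries, against 3.72, 4.10 and 4.598 in WT libraries, from 17 to 97 reads a library. The genotypes differed by 0.025 ± 0.17. For both receptors the WT libraries spread further than the Il1rn-/- libraries and enclosed them.

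Tnfrsf1b exceeded Tnfrsf1a in every library. Per kb the excess was 7.24-fold at the lowest, 9.16-fold at the median and 11.6-fold at the highest in Il1rn-/- libraries, against 6.44-fold, 7.93-fold and 14.8-fold in WT libraries. The log2 ratio of the CPM values averaged 3.77 ± 0.25 in Il1rn-/- and 3.75 ± 0.48 in WT (SD, n = 7 each). The difference, averaged over set a (-0.11) and set b (0.13) with equal weight, was 0.0093. Exact two-sided permutation within letters gave p = 0.963, adjusted over 2 ratios 0.963, with a smallest possible p of 0.000714. Tnfrsf18 against Tnfrsf4 gave a log2 ratio of 0.42 ± 0.32 in Il1rn-/- and 0.26 ± 0.24 in WT (SD, n = 7 each). The difference, averaged over sets in the same way, was 0.15, and the exact permutation p was 0.277, or 0.554 adjusted. Within library groups the difference was 0.027 (exact permutation, p = 0.815).

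**Figure D2:**
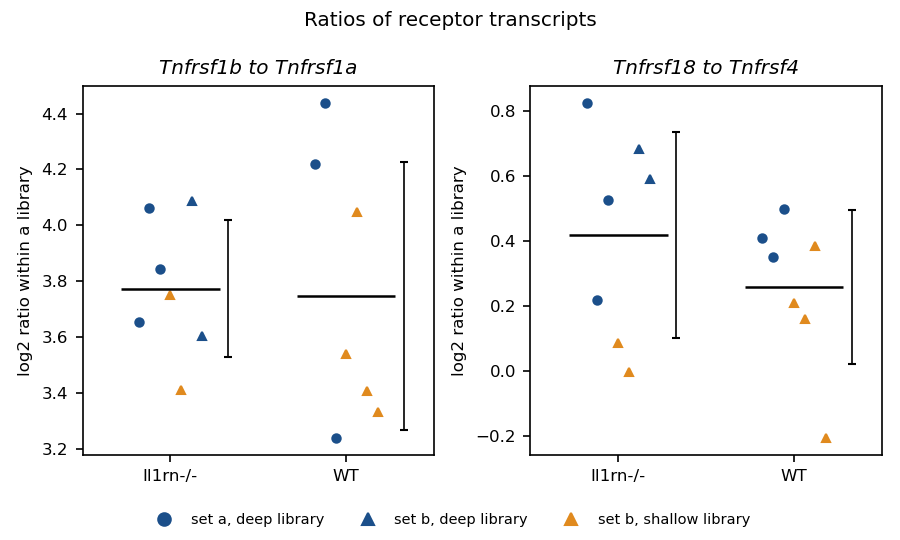
Log2 ratio of CPM within each library for Tnfrsf1b to Tnfrsf1a (left) and Tnfrsf18 to Tnfrsf4 (right), in Il1rn-/- and WT libraries, with means (lines) and SD (bars). Both genotypes overlap in both ratios, and Tnfrsf18 to Tnfrsf4 averages 0.51 in deep and 0.10 in shallow libraries.

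Tnfrsf25 encodes DR3, the death domain receptor for TL1A whose stimulation expands regulatory T cells in mice. It had values of 5.08, 6.58 and 6.97 in Il1rn-/- libraries, against 4.87, 5.72 and 6.84 in WT libraries. The means were 6.33 ± 0.78 in Il1rn-/- and 5.85 ± 0.79 in WT (SD), a difference of 0.48 ± 0.25 (limma, unadjusted p = 0.066, adjusted p = 0.787), with an interval of -0.035 to 0.99. This was the largest of the 10 differences, and it moved with the library group. It was 0.31 without Il1rn-/- 4-b. The 8 deep libraries lay at 6.29 to 6.97 and the 6 shallow ones at 4.87 to 5.72, without overlap and with means 1.45 apart. With the library group in place of the letter the difference was 0.070 ± 0.16, with an interval of -0.26 to 0.40, and among the shallow libraries alone it was -0.056 ± 0.29.

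Tnfrsf14 encodes HVEM, which binds the ligand LIGHT and the inhibitory receptor BTLA. It had values of 5.29, 5.72 and 6.27 in Il1rn-/- libraries, against 5.29, 5.97 and 6.32 in WT libraries, and a difference of -0.14 ± 0.13. It too was divided by the library group, but in the other direction: deep libraries lay at 5.29 to 5.84 and shallow ones at 5.97 to 6.32, a mean difference of -0.61 for deep minus shallow. The sum of the dendritic cell markers was also divided by the library group, at 16.2 to 37.7 CPM in deep and 38.3 to 126 CPM in shallow libraries. H2-Ab1 made up most of this sum, with 33 to 222 reads a library. Zbtb46, Xcr1 and Siglech had at most 14 reads in any library. The part of these genes in the level of Tnfrsf14 was not tested. With the library group in place of the letter the genotype difference was 0.037 ± 0.13. Deep and shallow libraries did not overlap for 2 of the 10 receptors, beside 14.9% of all tested genes. One receptor was above in deep libraries (8.35% of genes) and one below (6.56% of genes), and these are a description, since the grouping was read from the same libraries. Genotypes failed to overlap for 0 of the 10 receptors, beside 0.0324% of all tested genes. Some reads of Tnfrsf14 and Cd27 may belong to other genes, since 7.56% and 4.47% of their transcript sequence is shared, most often with Gm37625 and Mir8113. Mir8113 is annotated as a microRNA over a Cd27 exon on the same strand, so reads there can be those of Cd27 itself.

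Fas, the death receptor for FasL, had values of 5.04, 5.50 and 5.84 in Il1rn-/- libraries, against 4.47, 5.19 and 5.89 in WT libraries. The genotype difference was 0.24 ± 0.19 (95% interval -0.16 to 0.64), and 5 of 7 Il1rn-/- libraries lay above the WT mean. It was 0.12 without WT 3-b. Tnfrsf26, a mouse receptor of the family, had values of 4.73, 5.30 and 5.78 in Il1rn-/- libraries, against 4.54, 5.67 and 6.02 in WT libraries. The genotypes differed by -0.22 ± 0.21, or by -0.32 ± 0.21 under the library group model. For both receptors the groups overlapped over most of their range. Over all 10 receptors the 95% intervals ran from 0.629-fold (Tnfrsf26) to 1.99-fold (Tnfrsf25).

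**Figure D3:**
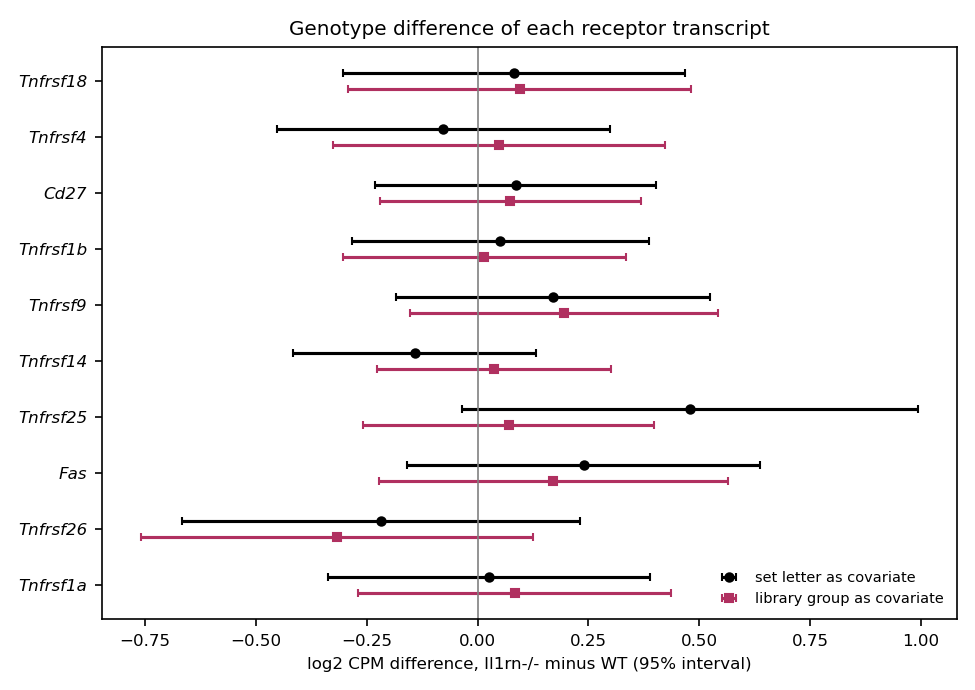
Genotype difference in log2 CPM (Il1rn-/- minus WT) of each receptor with its 95% interval, with the set letter (black) or the library group (red) as covariate. Each interval includes 0, and Tnfrsf25 is at 0.48 with the letter and at 0.070 with the library group.

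**Figure D4:**
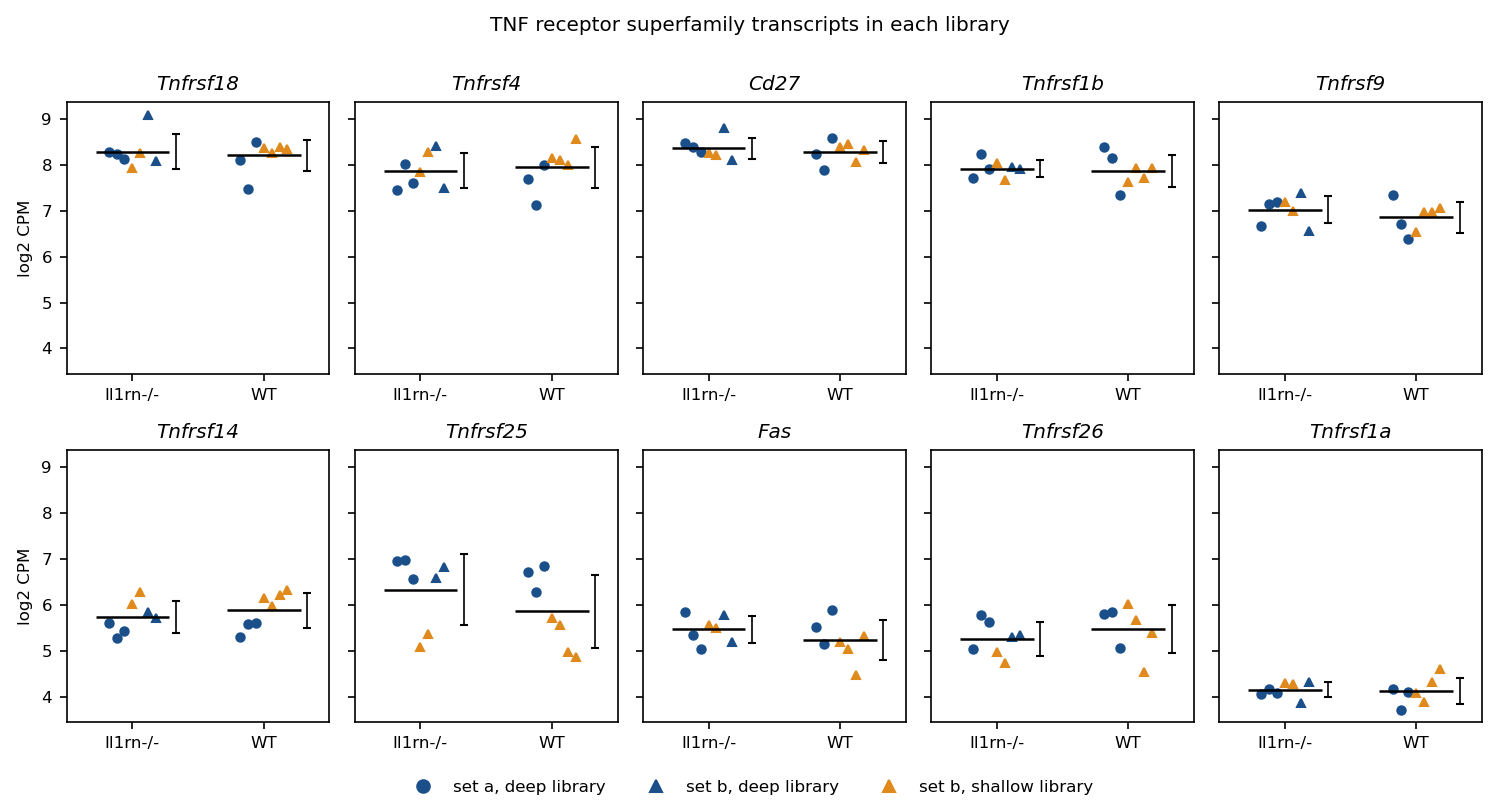
Log2 CPM of the 10 receptors in each library, Il1rn-/- left and WT right, with mean (line) and SD (bar), set by shape and library group by colour. Deep and shallow libraries separate for Tnfrsf25 and Tnfrsf14, and genotypes overlap in every panel.

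Sets a and b were also examined apart. Fas in set a was at 5.84, 5.35 and 5.04 log2 CPM in Il1rn-/- libraries, against 5.51, 5.15 and 5.89 in WT libraries. In set b it was at 5.56, 5.50, 5.78 and 5.19 in Il1rn-/- libraries, against 5.19, 5.04, 4.47 and 5.33 in WT libraries. The genotype difference of Fas was -0.11 ± 0.28 for set a and 0.50 ± 0.24 for set b. The difference between sets was 0.61 ± 0.37 (limma, unadjusted p = 0.111, adjusted p = 0.684). Tnfrsf25 in set b gave 0.68 ± 0.32 (limma, unadjusted p = 0.048, adjusted p = 0.328) and in set a 0.21 ± 0.37, and the sets differed by 0.47 ± 0.49 (unadjusted p = 0.348). No receptor was called within set a, within set b or for the difference between sets by limma, beside 0% of all genes in each. At an unadjusted p under 0.05 there were 0 receptors in set a (1.97% of all genes), 1 in set b (15% of all genes), which was Tnfrsf25, and 0 for the difference between sets (7.85%). All 4 WT libraries of set b were shallow and its 2 deep libraries were Il1rn-/-, so genotype and library group cannot be told apart for the deep libraries of set b. Y-linked transcripts were found in WT 1-a and 2-a of set a and in Il1rn-/- 3-b and 4-b of set b. Within each set they were thus also partly confounded with genotype, in opposite directions.

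Across the deep libraries 2 of 45 receptor pairs passed by Pearson r and 1 by the Spearman coefficient (exact permutation, adjusted p under 0.05). The share of all gene pairs that pass in these libraries is not given here, so nothing particular to the receptors is read from them. Correlations were computed within the 8 deep and within the 6 shallow libraries, since the pooled libraries fall into these groups, over 45 pairs in each. Among deep libraries Tnfrsf18 and Cd27 had a Pearson r of 0.96 and a Spearman coefficient of 1.00 (exact permutation, adjusted p = 0.00223 for r), and r was 0.94 without the 2 libraries farthest from the median. With library size taken without ribosomal RNA, r for this pair was 0.88 and the call was lost (exact permutation, adjusted p = 0.0551). Tnfrsf1b and Tnfrsf26 had r = 0.88 and a Spearman coefficient of 0.81 (exact permutation, adjusted p = 0.0374 for r and 0.344 for Spearman). Tnfrsf4 and Tnfrsf18, the neighbouring genes, had r = 0.91 (exact permutation, adjusted p = 0.051), and 0.60 without the 2 farthest libraries. Among shallow libraries 0 of 45 pairs passed by exact permutation, with 3 at an unadjusted p under 0.05. There Tnfrsf18 and Cd27 had r = -0.042 and a Spearman coefficient of -0.31, and Tnfrsf1b and Tnfrsf26 had r = -0.017 and a Spearman coefficient of -0.14. The Tnfrsf1b and Tnfrsf26 pair lost its call when any 1 deep library was left out.

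The 3 highest receptors also moved with a measure of transcript length in each library, the median log2 CPM of short genes (1297 genes of up to 3077 bases) minus that of long genes (1294 genes of 7450 bases or more). Among deep libraries this index was highest in Il1rn-/- 3-b, at 0.31, and lowest in WT 2-a, at -0.76, the same libraries that were highest and lowest for Tnfrsf18. Over the 8 deep libraries Tnfrsf4 had r = 0.97 with the index (exact permutation, p adjusted over 20 relations 0.00347), Tnfrsf18 r = 0.97 (adjusted 0.00868) and Cd27 r = 0.92 (adjusted 0.0152). The Spearman coefficients were 0.95, 0.83 and 0.83 for these 3 (exact permutation, adjusted p 0.0228, 0.103 and 0.103), so by rank only Tnfrsf4 passed. Their r without the 2 farthest libraries was 0.91, 0.78 and 0.70. Tnfrsf1b had r = -0.24, and the other 6 receptors had adjusted p values above the threshold too. By annotated exon Tnfrsf4, Tnfrsf18 and Cd27 have 1365, 1524 and 2328 bases, so they fall in the length class of the short genes. Tnfrsf14 (1438 bases), Fas (2062 bases) and Tnfrsf25 (2277 bases) are no longer than Cd27 and had r of 0.30, 0.64 and 0.27. Tnfrsf1a (2591 bases) and Tnfrsf9 (2722 bases) also fall in the length class of the short genes and had r of 0.047 and 0.40. The share of all short genes with an r as high is not given here. With the index taken off both genes by regression, Tnfrsf18 and Cd27 had r = 0.68, Tnfrsf1b and Tnfrsf26 had r = 0.88, and Tnfrsf4 and Tnfrsf18 had r = -0.52. Other pairs had a higher r with the index taken off, among them Tnfrsf1b and Tnfrsf9 (0.87 with it off, 0.68 without that step) and Tnfrsf9 and Tnfrsf26 (0.81 and 0.52). Among shallow libraries none of the 10 relations passed.

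**Figure D5:**
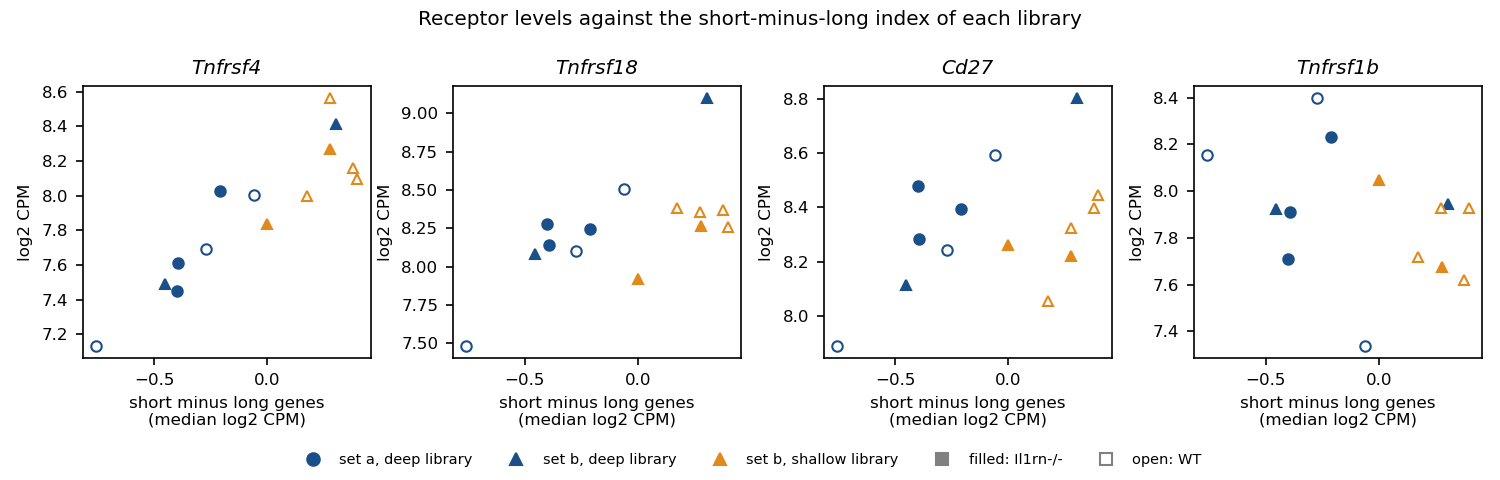
Log2 CPM of Tnfrsf4, Tnfrsf18, Cd27 and Tnfrsf1b against the short-minus-long index of each library, in Il1rn-/- (filled) and WT (open) libraries, by library group. In deep libraries Tnfrsf4, Tnfrsf18 and Cd27 lie higher where the index is higher, and Tnfrsf1b does not follow it.

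The genes whose level followed the highest receptors most closely were found over the 14 libraries after the mean of each library group was taken off, among 5226 genes, and r is given as a description. Cd27 was most like Rpl36a (0.955), Ifi27 (0.941) and Rpl24 (0.928). Tnfrsf18 was most like Brk1 (0.961), Rgs10 (0.954) and Dus1l (0.944), and Tnfrsf4 was most like Tmem173 (0.927), Ostc (0.909) and Abracl (0.883). Tnfrsf1b was most like Serinc3 (0.933), Mcm4 (0.895) and Vcp (0.892). The closest other receptor was Tnfrsf18 for Cd27 (0.84, place 96 among the 5226 genes) and for Tnfrsf4 (0.85, place 21). It was Tnfrsf4 for Tnfrsf18 (0.85, place 92) and Tnfrsf9 for Tnfrsf1b (0.69, place 182). Genes outside the family were closer to each of these receptors than any other receptor was, but the other receptors are few among the 5226 genes. These places therefore cannot show whether receptors are more or less alike than other genes, which was not tested.

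The other genes of the pathway were described from lists, in none of which any gene passed. The ligands and partners of the receptors had 8 tested genes with a median difference of 0.13, beside 0.043 for all genes. Ltb, a subunit of lymphotoxin, was the most strongly read of these, with 427 to 3210 reads a library. Tnfsf9, the ligand of 4-1BB, had 1 to 32 reads and differed by -0.82 ± 0.47, and Cd160, a partner of HVEM, differed by 0.60 ± 0.34. Other receptors of the family had 10 tested genes, 4 with a positive difference and 6 with a negative one, and a median of -0.026. Tnfrsf11a and Tnfrsf21 had at most 3 reads in any library.

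Adaptors and kinases downstream of the receptors had mostly positive differences, and 0 were called. Over all tested genes 55.3% had a positive difference and 5.51% an unadjusted p under 0.05. Of 12 TRAF adaptors and regulators, 11 had a positive difference, the median was 0.20 and 2 had an unadjusted p under 0.05, namely Traf2 (0.53 ± 0.21), which the receptors recruit, and Birc2 (0.46 ± 0.22), a ubiquitin ligase bound to it. Of 15 NF-kB kinases, subunits and inhibitors, 14 had a positive difference, with a median of 0.19, and Ikbkb, the IKK-beta kinase, differed by 0.51 ± 0.19. With the library group in place of the letter, 10 of the 12 and 7 of the 15 had a positive difference, beside 54.4% of all genes. The medians were then 0.088 and -0.0049, beside 0.026 for all genes, and 0 genes of either list had an unadjusted p under 0.05. The 11 death domain and cell death genes had a median of 0.046 and the 11 ubiquitin editors 0.13, or -0.0066 and 0.0026 with the library group. The 18 effector regulatory T cell genes had a median of 0.073 and the 11 naive and central T cell genes -0.056. Both signs turned with the library group, to -0.13 for the effector genes and 0.0086 for the naive and central genes.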

How the data were processed

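RNA was extracted from 50000 sorted cells per library and libraries were made with Smart-Seq2, per the labels' protocols. Cuffquant 2.2.1 is named there for quantification. TopHat2 2.0.10, BWA, Cuffnorm and Cufflinks 2.2.1 are listed in the submitters' processing notes. The sources used here give no build, strand handling or tool for the table.

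The authors deposited log2 CPM for 14449 genes. Their scaling holds a factor for each library, within 0.000379% of the trimmed mean of M-values (TMM) factor computed from recovered reads. The factor was 0.881 to 1.61 in deep and 0.690 to 0.904 in shallow libraries. Whole reads, recovered with a tolerance of 0.001 for 100% of values, served for depth and for limma voom. Library totals were 952021 to 3756559 reads, which limits precision for weak genes. Such reads carry no molecular identifiers and are not independent molecules.

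The 12329 genes above 1 CPM in 3 or more libraries were tested with limma 3.58.1 in R 4.3.3, using an intensity trend, genotype and the title's letter as terms, two-sided, with Benjamini-Hochberg adjustment at 0.05. A model of 4 groups gave the contrasts within sets and their difference. Single ratios and correlations were tested by exact permutation in Python 3.11.15 with scipy 1.17.1. The members and lists were chosen with earlier results of these data known. Named were all 10 members, up to 3 genes of each pathway list with the smallest p (Ltb, Tnfrsf11a and Tnfrsf21 were named after their values were seen), and for the 4 highest members the 3 most similar genes. Sequence shared with other genes was taken from shared 32-base words of GENCODE transcripts. Alternatives covered the filter, pseudocount, scaling, covariates, replicate block, library weights, test and libraries left out. The steps were tested on simulated data.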

Additional observations from a re-analysis of the deposited data

Results flagged for a closer look

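Of 44 groups of library values examined for a value standing apart, 3 had one, where chance flags about 1 in 20 groups and the groups share libraries. Tnfrsf18 in Il1rn-/- 3-b, at 9.10 log2 CPM, was far above the other 6 Il1rn-/- libraries, which lay at 7.92 to 8.28. Tnfrsf18 in WT 2-a, at 7.49 log2 CPM, was far below the other 6 WT libraries, which lay at 8.10 to 8.51. Tnfrsf1a in Il1rn-/- 3-b, at 3.86 log2 CPM from 46 reads, was below the other 3 Il1rn-/- libraries of set b, which lay at 4.27 to 4.32. The library Il1rn-/- 3-b also had the highest mt-Rnr2 share of reads outside Rn45s, at 16.2%, and the highest short-minus-long index of the deep libraries; the part of either in these values was not tested.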

How the results depend on the processing

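The count of genes called was 0 under each alternative run except deep libraries alone (2) and shallow libraries alone (13). The count of receptors called was 0 under each. TMM scaling of recovered reads repeated the deposited scaling and gave the same fit, so it is not a separate check. The planned count-model test on recovered reads was not run, because the deposited values are log2 CPM; limma voom was run in its place. Deviations of same-numbered libraries correlated at -0.29 to 0.063. No pairing by replicate number was seen in these values, which cannot exclude one. The replicate block gave 0 genes called. Its ratio differences were 0.027 (Tnfrsf1b to Tnfrsf1a) and 0.16 (Tnfrsf18 to Tnfrsf4), which equal the plain differences of the genotype means. With the library group in place of the letter, or permutation within library groups, signs turned for Tnfrsf14 (0.037) and Tnfrsf4 (0.048), and for the Tnfrsf1b to Tnfrsf1a ratio (-0.059). Adding Y-linked transcripts gave 0.059 and 0.035 for Tnfrsf14 and Tnfrsf4. In deep libraries alone signs turned for Fas (-0.080), Tnfrsf14 (0.081), Tnfrsf1b (-0.020), Tnfrsf4 (0.19) and the Tnfrsf1b to Tnfrsf1a ratio (-0.12), and in shallow libraries alone for Cd27 (-0.065), Tnfrsf18 (-0.25) and Tnfrsf25 (-0.056). Library size without ribosomal RNA gave -0.047 for Tnfrsf1a and -0.021 for Tnfrsf1b, library weights gave -0.024 for Tnfrsf1b, and centring gave 0.050 for the Tnfrsf9 difference between sets. With 1 library left out, genotype differences ranged from -0.045 to 0.16 (Tnfrsf18), -0.035 to 0.097 (Tnfrsf1a), -0.060 to 0.14 (Tnfrsf1b), -0.18 to 0.024 (Tnfrsf4) and -0.17 to 0.13 (Tnfrsf1b to Tnfrsf1a ratio). The sign held but the size moved by over 1.5 times for Cd27 (0.0094 without Il1rn-/- 3-b to 0.15), Fas (0.12 without WT 3-b to 0.34), Tnfrsf9 (0.087 without WT 3-a to 0.27), Tnfrsf25 (0.31 without Il1rn-/- 4-b to 0.62), Tnfrsf26 (-0.36 without WT 3-b to -0.10 without WT 1-b), Tnfrsf14 (-0.19 to -0.093 without Il1rn-/- 4-b) and the Tnfrsf18 to Tnfrsf4 ratio (0.077 without Il1rn-/- 1-a to 0.23 without Il1rn-/- 2-a). Differences between sets ranged from -0.28 to 0.076 (Cd27), -0.44 to 0.086 (Tnfrsf18), -0.24 to 0.0083 (Tnfrsf1a), -0.10 to 0.43 (Tnfrsf1b), -0.52 to 0.022 (Tnfrsf26) and -0.30 to 0.19 (Tnfrsf9). With library size without ribosomal RNA, 0 receptor pairs passed, with r of 0.88 for both Tnfrsf18 and Cd27 and Tnfrsf1b and Tnfrsf26. With 1 deep library left out 1 to 3 pairs passed, and Tnfrsf1b and Tnfrsf26 had r of 0.86 to 0.90. By coding length, 7 receptors changed place in the order of levels and Cd27 came first. The cause of these changes was not tested. Low reads limit Tnfrsf1a, Fas and Tnfrsf26 most.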
